A study of Mus musculus with 15 samples.

Results

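Dbp, Tef, Hlf, Nfil3 and Bhlhe40 are transcription factor genes through which the circadian clock of the liver acts on other genes. All probe sets that the platform annotation gives 1 of these 5 symbols were used. These were 9 of 45037 probe sets, controls left out, and stand for 5 of 18194 gene symbols, and 8 of them were among the 20361 probe sets tested. The 5 genes were chosen by their signals in the CL+CX, CL and NC livers, the same values that are given here, so these are a description without p-values. Dbp, Tef and Hlf encode the PAR bZIP activators, which bind a DNA element called the D-box. Nfil3 (E4BP4) encodes a bZIP repressor that binds the same element but has no PAR domain. Bhlhe40 (DEC1) encodes a basic helix-loop-helix repressor of E-box genes and belongs to neither family.

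In the mammalian clock, CLOCK and BMAL1 (encoded by Arntl) bind E-boxes and drive the Per and Cry genes, whose proteins inhibit them, as well as output genes such as Dbp. The REV-ERB and ROR receptors compete at another element, found at Arntl and Nfil3, and repress or activate it. In mouse liver the RNAs of Dbp and Nfil3 peak at opposite times of day, so that activator and repressor take turns at D-box genes of lipid, bile acid and drug metabolism.

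Livers were taken from male C57BL/6J mice that were 8 weeks old when a 12-week feeding period began. The CL+CX mice received a diet that held 60% cocoa butter, with 1.25% cholesterol, sodium cholate at 0.5% and 38.23% CRF-1 chow, to which β-cryptoxanthin, a carotenoid, had been added (0.003% in the methods and treatment text, 0.005% in the sample titles). The CL mice received that diet alone, and the NC mice received CRF-1 chow, with 5 mice and 1 array per mouse in each group. The mice were housed under a light and dark cycle and ate freely, and the hour at which they were killed is not given in the sources used here. The order of killing by diet is not given either. A difference between diets therefore cannot be told apart from a difference in the hour of killing, and this was not tested.

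Signals are in arbitrary units, with the 75th percentile of every array set to 54.1, and a difference is that of group means of log2 signal, with the standard error of a limma fit of all 15 arrays. Array medians lay between 11.4 and 13.6 on this scale. The CL replicate 2 array had the lowest mean correlation with its own group, 0.941, against 0.957 to 0.972 for the other arrays. The β-actin 3′ to 5′ difference, a measure of RNA integrity, was 1.07 ± 0.10 log2 in CL+CX livers, 0.82 ± 0.10 in CL livers and 0.94 ± 0.09 in NC livers (SD, n = 5 each). By an exact two-sided permutation test this difference was larger in CL+CX than in CL livers (p = 0.00794, the smallest that 252 arrangements allow with these groups, adjusted over the 3 comparisons p = 0.0238), and its adjusted p was 0.0952 for CL against NC and 0.0833 for CL+CX against NC. Hepatocyte markers were high on every array, with summed signals of 31992 to 38176 in CL+CX, 28755 to 48176 in CL and 42884 to 54148 in NC livers. The CL+CX sums all lay below the NC sums, and the CL sums overlapped both. Of these markers, Tat was called lower against NC in CL (-1.07, adjusted p = 0.0126) and in CL+CX (-1.52, adjusted p = 0.00245). Alb, Ttr, Apoa1 and Cps1 were not called in any comparison. The summed signal of the 6 macrophage markers was 1072 to 1878 in CL+CX, 2157 to 3625 in CL and 552 to 1227 in NC livers, without overlap between CL and the other diets. All 6 were called higher in CL against NC. In CL+CX against CL, Adgre1, Cd68 and Tyrobp were called lower, and Csf1r, Clec4f and Marco were not called (adjusted p = 0.0537, 0.177 and 0.765). The 5 stellate cell markers summed to 1771 to 2269 in CL+CX, 2289 to 3472 in CL and 1673 to 1957 in NC livers, again without overlap with CL. Most of this sum was Dcn, which was called lower in CL+CX against CL (-0.51, adjusted p = 0.0386) and higher in CL against NC (0.67, adjusted p = 0.00292). Lrat, Des and Reln overlapped and were not called in either comparison (-0.21, -0.29 and -0.27 in CL+CX against CL), and Col1a1 was not tested. The endothelial marker Clec4g (-0.83, adjusted p = 0.0350) and the bile duct marker Sox9 (-1.13, adjusted p = 0.0137) were also called lower in CL+CX against CL. The endothelial markers Stab2, Lyve1, Kdr and Pecam1 were not called there (adjusted p = 0.318, 0.0502, 0.392 and 0.117). Sox9 was the only bile duct marker tested. The summed signals of both cell types overlapped between CL+CX and CL. In these whole-liver samples, fewer cells of a type and less RNA per cell cannot be told apart.

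Dbp lies on chromosome 7 (chr7:45705100-45710203, GRCm38.p6). The bases before its RefSeq transcript start are shown for comparison with those of Tef and Nfil3 below. The window reaches into the annotated gene, which has an earlier start. Capitals mark a CCAAT box, the letters CCAAT read on either strand, here on the reverse strand at 222 bases before the start.

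Dbp, chr7:45704997-45705246, plus strand: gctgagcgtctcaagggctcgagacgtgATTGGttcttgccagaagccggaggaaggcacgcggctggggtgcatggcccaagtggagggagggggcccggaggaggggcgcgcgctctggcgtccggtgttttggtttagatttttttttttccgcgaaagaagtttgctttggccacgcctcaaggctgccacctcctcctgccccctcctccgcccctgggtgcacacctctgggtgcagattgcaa

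No E-box (CACGTG) and no D-box (TTATGTAA or TTACGTAA) was found in these 250 bases. CCAAT occurs in 33.8% of the 32851 mouse promoter windows of this length, the E-box in 6.02% and the D-box in 0.931%.

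Dbp was expressed strongly in CL+CX livers and weakly in both other diets. Its main probe set (1438211_s_at, the one with the highest mean) gave 678, 577, 732, 595 and 620 in CL+CX replicates 1 to 5. The signals were 38.0, 33.1, 32.0, 21.2 and 76.9 in CL livers, and 53.5, 36.8, 49.0, 76.5 and 50.6 in NC livers. Every CL+CX mouse lay above every mouse of the other diets, while the CL and NC mice overlapped. The group means were 640 ± 63.7 in CL+CX, 40.2 ± 21.4 in CL and 53.3 ± 14.5 in NC livers (SD, n = 5 each). The difference was 4.12 (SE 0.26) for CL+CX minus CL, a 17.4-fold higher level, and 3.62 (SE 0.26) for CL+CX minus NC. For CL minus NC it was -0.50 (SE 0.26), and it was -0.77 without CL replicate 5, -0.30 without CL replicate 4 and -0.19 with the signals as deposited.

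The other Dbp probe set (1418174_at) gave 376 to 456 in CL+CX, 9.84 to 83.9 in CL and 17.1 to 37.1 in NC livers. It had the same order between CL+CX and each other diet, with differences of 3.85 (SE 0.40) against CL and 4.01 (SE 0.40) against NC. Between CL and NC the probe sets had opposite signs, since this one gave 0.16 (SE 0.40). Within the CL+CX group Dbp was even, with a highest signal of 732 and a lowest of 577, whereas among CL mice replicate 5 had 76.9 and the other 4 mice had 21.2 to 38.0.

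**Figure D1:**
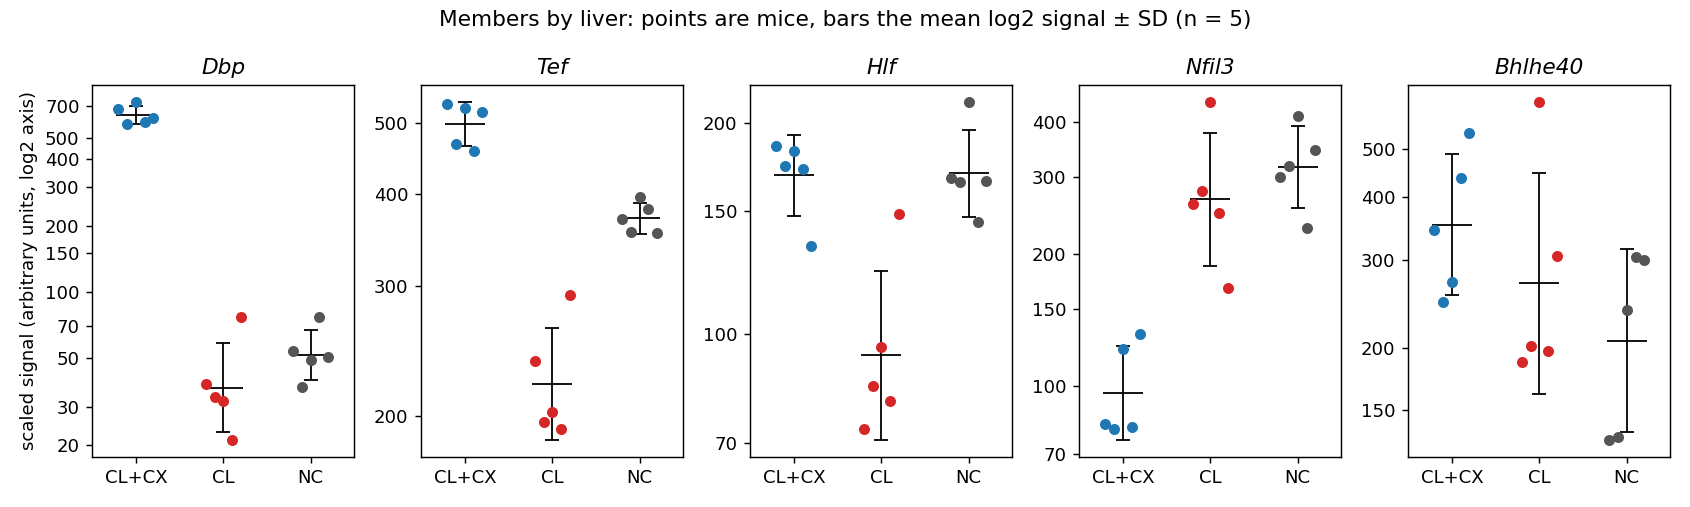
Scaled signal (arbitrary units, log2 axis) of the main probe set of each gene in the CL+CX, CL and NC livers. Each point is 1 mouse, and the bars show the mean log2 signal with its SD (n = 5). Dbp lies between 577 and 732 in all CL+CX mice and below 77 in all others, Nfil3 is lowest in CL+CX mice, and Bhlhe40 overlaps in all 3 diets.

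Tef, on chromosome 15 (chr15:81802673-81826863), has 2 transcript starts in the promoter table. Both windows are shown because each holds an E-box, which begins 127 bases before the first start and 138 bases before the second. Capitals mark the E-box and the CCAAT boxes, which share no base with it.

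Tef, first start, chr15:81802423-81802672, plus strand: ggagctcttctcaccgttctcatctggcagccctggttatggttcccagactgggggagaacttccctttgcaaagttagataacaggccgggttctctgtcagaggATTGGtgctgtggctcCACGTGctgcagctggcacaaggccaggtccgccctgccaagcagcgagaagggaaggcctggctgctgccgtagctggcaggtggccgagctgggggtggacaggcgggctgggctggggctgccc

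Tef, second start, chr15:81811164-81811413, plus strand: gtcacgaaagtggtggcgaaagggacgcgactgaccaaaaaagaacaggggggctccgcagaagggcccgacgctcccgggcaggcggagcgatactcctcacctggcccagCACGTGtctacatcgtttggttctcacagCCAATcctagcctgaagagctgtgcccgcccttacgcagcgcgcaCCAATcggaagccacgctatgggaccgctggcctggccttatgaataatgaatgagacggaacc

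The second window lies inside the gene, and neither holds a D-box. These matches describe the letters of the windows, and binding was not measured.

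By its main probe set, after scaling, Tef separated all 3 diets. Its main probe set (1424175_at) gave 529, 467, 524, 458 and 517 in CL+CX livers, 237, 197, 203, 192 and 292 in CL livers, and 371, 355, 397, 381 and 354 in NC livers. No mouse of one diet fell within the range of another, and the order was CL+CX, then NC, then CL. The means were 499 ± 33.8 in CL+CX, 224 ± 41.7 in CL and 372 ± 18.0 in NC livers (SD, n = 5 each). The difference was 1.17 (SE 0.12) for CL+CX minus CL, a 2.25-fold higher level, -0.75 (SE 0.12) for CL minus NC and 0.42 (SE 0.12) for CL+CX minus NC. With the signals as deposited, these were 1.10, -0.43 and 0.67, and CL replicate 1, at 345, lay within the NC range of 302 to 359.

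A dimmer Tef probe set (1438033_at) had the same order of means, with 46.2 to 73.0 in CL+CX, 11.6 to 42.1 in CL and 24.2 to 40.5 in NC livers. By this probe set the CL and NC livers overlapped. Its differences were 1.56, -0.55 and 1.01 (SE 0.27 each) for CL+CX minus CL, CL minus NC and CL+CX minus NC. The last Tef probe set (1450184_s_at) did not reach the array median in all mice of any diet and was not tested. It gave 3.35 to 25.3 in CL+CX, 1.77 to 11.6 in CL and 2.55 to 14.2 in NC livers, ranges that overlap.

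Hlf, on chromosome 11, was lower in most CL livers than in the other diets. The main probe set (1434736_at) gave 185, 174, 182, 172 and 134 in CL+CX livers, 73.4, 84.3, 96.0, 80.4 and 148 in CL livers, and 167, 164, 214, 145 and 165 in NC livers. CL replicate 5, with 148, lay above CL+CX replicate 5 and NC replicate 4, and the other 4 CL mice lay below every mouse of both other diets. The means were 169 ± 20.8 in CL+CX, 96.5 ± 30.2 in CL and 171 ± 25.8 in NC livers (SD, n = 5 each). The differences were 0.85 for CL+CX minus CL, -0.86 for CL minus NC and -0.01 for CL+CX minus NC (SE 0.18 each). When the actin measure of RNA integrity entered the fit as a covariate, CL+CX minus CL for Hlf was 0.44. The other Hlf probe set (1434735_at) gave 81.9 to 106 in CL+CX, 62.3 to 84.9 in CL and 99.1 to 123 in NC livers, with differences of 0.36, -0.59 and -0.23 (SE 0.12 each) in the same order. The CL+CX level of Hlf lay at the NC level by one probe set and between CL and NC by the other, unlike Dbp and Tef, where it lay above both.

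Nfil3 lies on the minus strand of chromosome 13 (chr13:52967209-52982878). Its window, which lies inside the annotated gene, is shown because it holds AGGTCA, the half-site of the element that ROR and REV-ERB receptors bind, on the reverse strand 12 bases before the start, as well as a CCAAT box (both in capitals). AGGTCA occurs in 14.0% of all windows.

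Nfil3, chr13:52981040-52981289, minus strand: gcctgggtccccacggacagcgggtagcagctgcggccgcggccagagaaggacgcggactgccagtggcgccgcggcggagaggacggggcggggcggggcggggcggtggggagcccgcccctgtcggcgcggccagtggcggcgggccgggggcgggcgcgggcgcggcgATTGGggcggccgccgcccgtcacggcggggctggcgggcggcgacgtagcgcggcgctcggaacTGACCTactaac

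Nfil3 was lower in CL+CX livers than in both other diets, whereas Dbp was higher in CL+CX livers. Its probe set (1418932_at) gave 81.8, 79.5, 121, 80.5 and 131 in CL+CX livers, 260, 278, 444, 248 and 167 in CL livers, and 299.8, 318, 413, 229 and 346 in NC livers. Every CL+CX mouse lay below every mouse of the other diets, and the lowest of the CL mice was replicate 5. The means were 98.8 ± 25.2 in CL+CX, 280 ± 101 in CL and 321 ± 67.2 in NC livers (SD, n = 5 each). The difference was -1.46 (SE 0.24) for CL+CX minus CL, so that the level was 2.76-fold higher in CL, and -1.71 (SE 0.24) for CL+CX minus NC. For CL minus NC it was -0.25 (SE 0.24), with overlapping mice, and it was 0.07 with the signals as deposited.

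**Figure D2:**
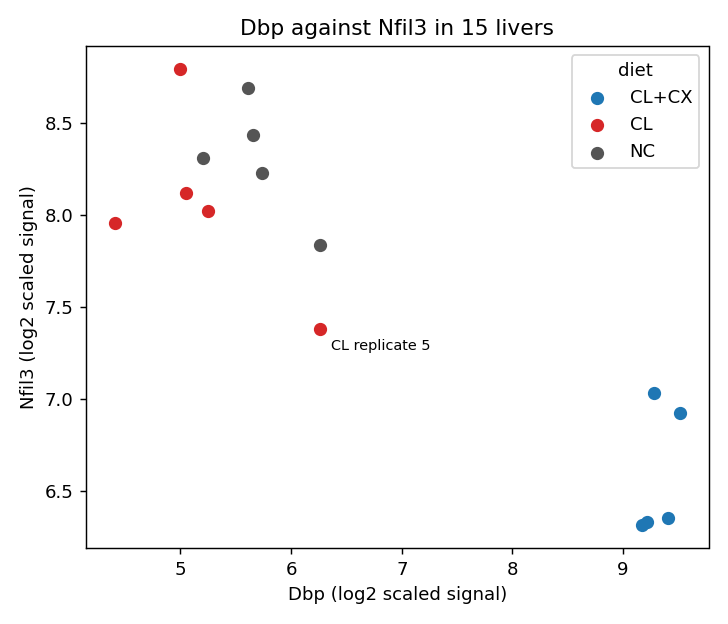
Log2 scaled signal of Nfil3 (vertical axis) against that of Dbp (horizontal axis), 1 point per liver, colored by diet (CL+CX, CL and NC). The 5 CL+CX livers form a separate group with high Dbp and low Nfil3, and CL replicate 5 is the CL liver nearest to them.

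Bhlhe40, on chromosome 6, did not separate the diets. Its probe set (1418025_at) gave 344, 247, 271, 438 and 539 in CL+CX livers, 187, 202, 621, 197 and 305 in CL livers, and 131, 132, 238, 304 and 300.1 in NC livers. The highest value of all belonged to CL replicate 3, and all pairs of diets overlapped. The means were 368 ± 121 in CL+CX, 302 ± 185 in CL and 221 ± 85.7 in NC livers (SD, n = 5 each), with differences of 0.39 for CL+CX minus CL, 0.38 for CL minus NC and 0.77 for CL+CX minus NC (SE 0.35 each). Without CL replicate 3 the first was 0.69 and the second 0.08.

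At an adjusted p under 0.05 (limma, Benjamini-Hochberg), 5 of the 8 probe sets tested were called higher in CL+CX against CL livers and 1 was called lower. Of all probe sets tested, 1.57% were higher and 1.55% lower, 3.12% in all. In 5 the groups did not overlap, as was the case for 4.99% of all. For CL against NC, 3 were called, all lower in CL, with 6.36% of all probe sets lower, 5.88% higher and 12.2% in either direction, and in 2 the groups did not overlap (10.1% of all). For CL+CX against NC, 4 were called higher and 1 lower, with 4.76% of all higher, 4.98% lower and 9.74% in either direction, and 5 did not overlap (14.2% of all). These contrasts chose the genes, so the counts are no evidence about them. Each diet enters 2 of the 3 comparisons. When the actin measure entered the fit, CL+CX minus CL was 3.91 for Dbp, 1.14 for Tef, -1.14 for Nfil3 and 0.58 for Bhlhe40. In that fit 1 probe set of all 20361 was called in CL+CX against CL. At most 1 of the calls of these genes in that comparison was therefore kept. The part of the hepatocyte, macrophage, stellate, endothelial and bile duct markers in the values of these genes was not tested.

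**Figure D3:**
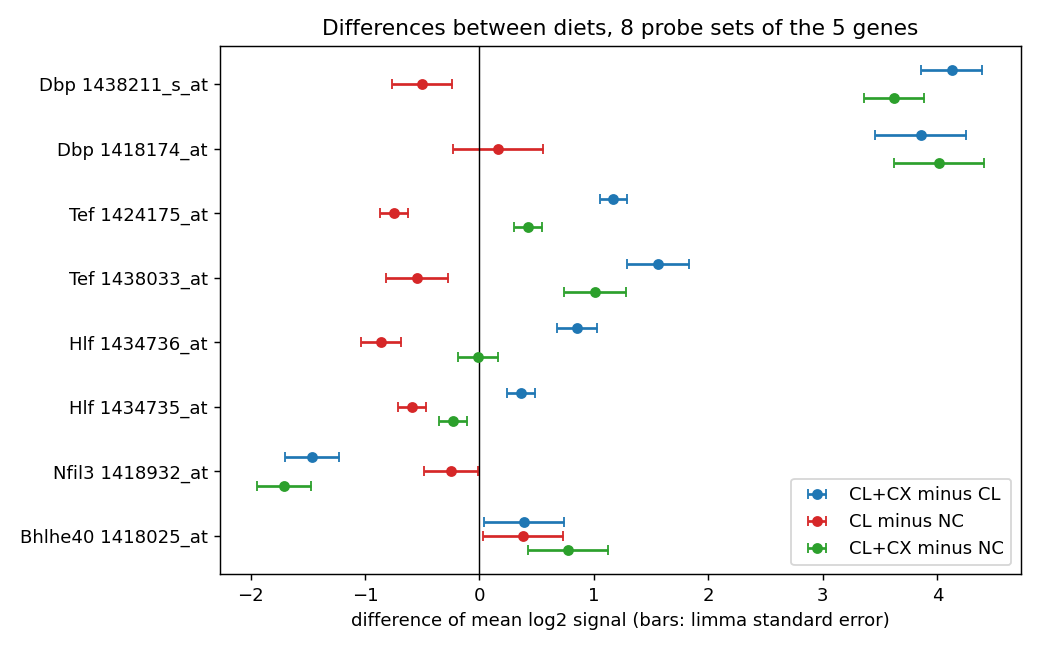
Difference of mean log2 signal for the 8 probe sets tested, with the limma standard error, for CL+CX minus CL, CL minus NC and CL+CX minus NC. Both Dbp probe sets lie near 4 in the comparisons with CL+CX, Nfil3 lies at -1.46 and -1.71 there, and Bhlhe40 lies within 0.77 of 0 throughout.

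By the main probe set, CL replicate 5 was the CL mouse nearest the CL+CX mean in all 5 genes. By the other tested Hlf probe set (1434735_at) it was CL replicate 2, with a log2 signal of 6.41 against 6.27 in CL replicate 5. The main probe set signal of CL replicate 5, set against the mean of the other 4 CL mice, was 2.53-fold for Dbp, 1.41-fold for Tef, 1.79-fold for Hlf and 0.558-fold for Nfil3. For Dbp, Tef and Hlf it was the highest of the CL mice and for Nfil3 the lowest. Its Dbp signal of 76.9 was nevertheless close to that of NC replicate 4, 76.5, and far below the lowest CL+CX value of 577. Without this mouse the difference for CL+CX minus CL was 4.39 for Dbp, 1.27 for Tef, 1.02 for Hlf and -1.63 for Nfil3. Over all probe sets tested, 971 were then called in CL+CX against CL, beside 635 with all mice. How often CL replicate 5 was the nearest CL mouse over all genes was not computed. Its actin 3′ to 5′ difference, 0.95, was the highest of the CL arrays, and the part of this measure in these values was not tested.

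The core clock genes that act on these factors were examined as a list of 19, of which 15 were tested at gene level. In CL+CX against CL livers 6 were higher and 3 lower at an adjusted p under 0.05 over all probe sets, with a median difference of 0.17, beside 0.02 over all 10525 genes, of which 1.46% were higher and 1.78% lower. Among the activators, Arntl was lower, at -1.58 (SE 0.23, adjusted p = 0.00451). Npas2, a partner of BMAL1 related to CLOCK, was at least 1.94-fold lower in CL+CX, where it lay below the array median on every array (adjusted p = 0.00691). Clock itself gave -0.30 (adjusted p = 0.292).

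Among the repressors, Per3 was higher by 2.57 (SE 0.41, adjusted p = 0.00788) and Cry2 by 0.88 (SE 0.19, adjusted p = 0.0242), while Cry1 was lower, at -0.997 (SE 0.17, adjusted p = 0.0126). Ciart, which encodes a repressor of CLOCK and BMAL1, was at least 1.87-fold higher (adjusted p = 0.0489). The REV-ERB genes Nr1d1 and Nr1d2 were higher by 2.62 (SE 0.68, adjusted p = 0.0488) and 1.05 (SE 0.15, adjusted p = 0.00451), and Usp2, a deubiquitinase gene driven by the clock, by 1.69 (SE 0.35, adjusted p = 0.0227). Per1 and Per2 gave 0.05 and 0.91 (adjusted p = 0.943 and 0.137). The 5 CL+CX livers and the 5 CL livers did not overlap for any of these 9 genes except Usp2. Ciart, Per3 and Nr1d1 were tested only because they reached the array median in all 5 CL+CX mice. Npas2 was tested only through the 5 CL mice. Each thus passed the filter through the diet in which it was high, so its calls are no independent support. Without this filter, 3 clock genes were called in CL+CX against CL and 4 in CL+CX against NC. CL replicate 5 was the CL mouse nearest the CL+CX mean for 7 of the 9 clock genes called, and for 8 of all 15 tested.

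When the actin measure entered the fit, none of the 9 was called, and 1 probe set of all 20361 was. In that fit Nr1d1 gave 1.09 (adjusted p = 0.934), Cry2 0.30 (adjusted p = 0.932) and Arntl -1.06 (adjusted p = 0.726). The other 6 gave differences of 0.93 to 2.94 in size with adjusted p of 0.445 to 0.899, and no gene of the 9 changed sign. Without CL+CX replicate 2, 3 or 4, 5 of the clock genes were called in each case. Arntl, Npas2, Per3, Cry1 and Nr1d2 were called whichever of the 15 mice was left out.

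**Figure D4:**
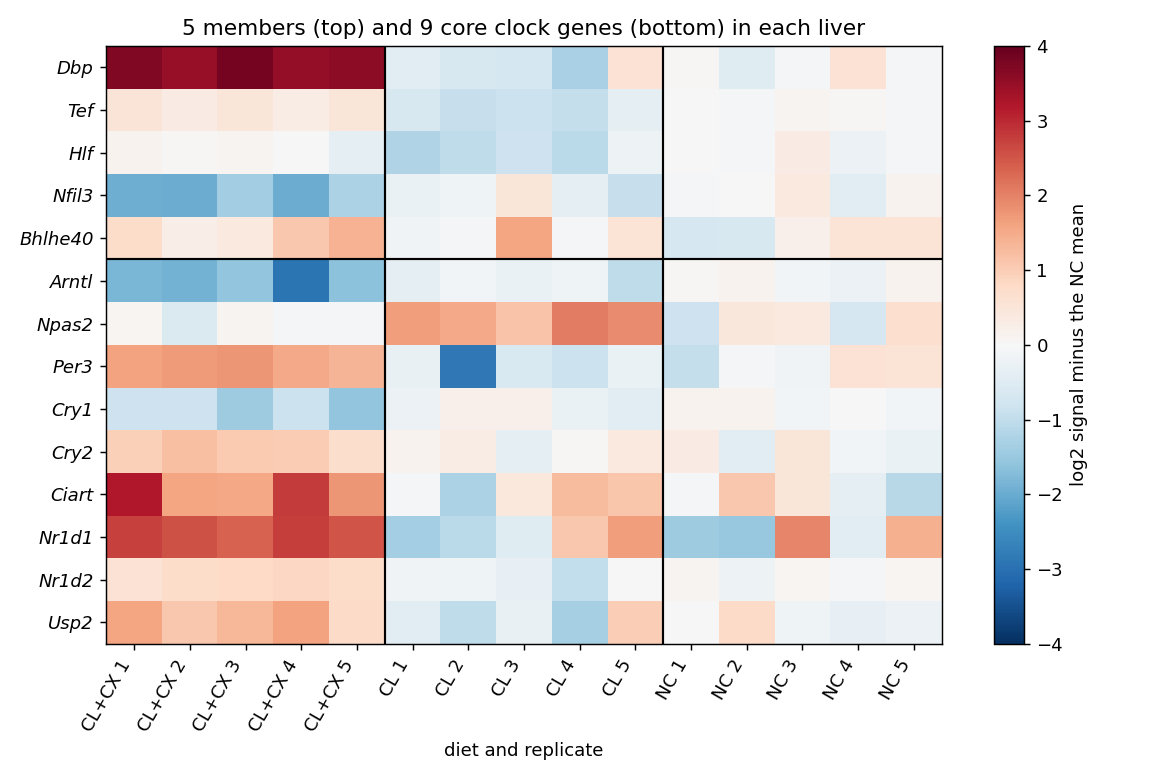
Log2 signal minus the NC mean (color scale) for the 5 genes described here (top) and the 9 core clock genes called in CL+CX against CL (bottom), 1 column per liver, ordered CL+CX, CL and NC. The CL+CX columns are red for Dbp, Per3, Ciart, Nr1d1 and Usp2 and blue for Nfil3, Arntl and Cry1, and Npas2 is raised in the CL columns alone.

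In CL against NC livers, 1 of the 15 clock genes was called, with 7.17% of all genes higher and 6.76% lower. Npas2 was at least 1.93-fold higher in CL (adjusted p = 0.00151), and the median of the list was -0.10, beside -0.08 over all genes. In CL+CX against NC livers, 7 were higher and 2 lower (5.06% and 4.84% of all genes), with a median of 0.04 beside -0.04 over all genes. Arntl gave -1.97 (adjusted p = 0.000295), Cry1 -1.09 (adjusted p = 0.00174) and Cry2 0.98 (adjusted p = 0.00498). Nr1d2 gave 0.73 (adjusted p = 0.00919), Nr1d1 2.58 (adjusted p = 0.0266), Per3 1.59 (adjusted p = 0.0249) and Usp2 1.27 (adjusted p = 0.0312). Per2, not called against CL, averaged 6.05 log2 in CL+CX and 4.65 in NC livers (adjusted p = 0.0156), and Ciart was at least 1.85-fold higher (adjusted p = 0.0133). Npas2, not called here, lay below the array median on every CL+CX and NC array.

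Liver genes linked to PAR bZIP factors or NFIL3 did not move together between CL+CX and CL, but nearly all lay below NC in both. Of 15 such genes 12 were tested, and in CL+CX against CL 2 were higher and none lower. The median of the 12 was 0.09, beside 0.02 over all genes, of which 1.46% were higher and 1.78% lower. Alas1, the first enzyme of heme synthesis, gave 1.06 (SE 0.26, adjusted p = 0.0424), and Ppara, the receptor that drives fatty acid oxidation, gave 0.44 (SE 0.11, adjusted p = 0.0430). Both lost their calls with most single mice left out, with the actin covariate and with the signals as deposited. Ppara was also not called with quantile normalization (adjusted p = 0.134). Cyp7a1, the rate-limiting enzyme of bile acid synthesis, gave 0.09 (adjusted p = 0.939) and Nr1i3 (CAR), a xenobiotic receptor, 0.09 (adjusted p = 0.749). Fgf21, a hepatokine gene that NFIL3 represses, gave -1.34 (SE 0.36, adjusted p = 0.0537), with overlapping mice. Any action of NFIL3 on Fgf21 in these livers was not tested.

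Against NC, the median difference over the 12 genes was -0.53 in CL+CX and -0.56 in CL, beside -0.04 and -0.08 over all genes, and none was called higher in either. All were lower than in NC except Alas1 in CL+CX, at 0.54, and Fgf21 in CL, at 0.45 (adjusted p = 0.209 and 0.449). In CL+CX against NC, 4 of 12 were lower, beside 4.84% of all genes. All 4 were thioesterase genes, whose enzymes cleave fatty acyl-CoA. Acot1 gave -1.16 (adjusted p = 0.00901), Acot2 -0.73 (adjusted p = 0.0459), Acot3 -1.55 (adjusted p = 0.00951) and Acot4 -1.32 (adjusted p = 0.00454). These paralogs are closely related in sequence, so their probe sets may share signal. Acot2 was not called with the signals as deposited or with quantile normalization (adjusted p = 0.248 and 0.0646). In CL against NC, 3 were lower, beside 6.76% of all genes. These were Ppara at -0.61 (adjusted p = 0.00261), Acot3 at -1.64 (adjusted p = 0.00506) and Acot4 at -0.85 (adjusted p = 0.0333). With the signals as deposited, Ppara gave -0.29 (adjusted p = 0.322) and Acot4 -0.54 (adjusted p = 0.226), so of these 3 only Acot3 was still called. With quantile normalization Ppara gave -0.44 and was not called (adjusted p = 0.0615).

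Of the C/EBP genes, bZIP relatives that bind similar DNA, 4 of 5 were tested. Cebpa, which encodes a main regulator of hepatocyte genes, was higher by 0.83 in CL+CX against CL (SE 0.11, adjusted p = 0.00272) and lower in CL than in NC, at -0.53 (SE 0.11, adjusted p = 0.00559), without overlap in either. It was not called with the signals as deposited in either comparison, nor in CL+CX against CL with the actin covariate. In CL+CX against NC it gave 0.30 (adjusted p = 0.0851), and Cebpb, Cebpd and Cebpg were not called in any comparison. The medians of the list were 0.07, -0.32 and -0.26 for CL+CX minus CL, CL minus NC and CL+CX minus NC, beside 0.02, -0.08 and -0.04 over all genes.

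Genes that follow fasting and feeding were examined because food intake also sets the liver clock. Of 9 tested, 2 were lower in CL+CX livers when set against CL, and none was higher, beside 1.78% and 1.46% of all genes. Igfbp1, which encodes a fasting-induced binding protein of IGF, gave -1.76 (SE 0.38, adjusted p = 0.0261) and Pdk4, which encodes a kinase that spares glucose, gave -1.48 (SE 0.37, adjusted p = 0.0427). Neither was called with the actin covariate or without a filter on low signals. Pdk4 was also not called with the signals as deposited or with quantile normalization (adjusted p = 0.0873 and 0.0503). Srebf1, which encodes a lipogenic factor, gave 0.74 (adjusted p = 0.0514) and Pck1, the gluconeogenic enzyme, 0.04 (adjusted p = 0.884). The median was -0.31 beside 0.02 over all genes. In CL+CX against NC, 2 were higher and 5 lower (5.06% and 4.84% of all genes), with a median of -0.84 beside -0.04 over all genes. Srebf1 gave 1.57 (adjusted p = 0.000406) and Fasn 1.15 (adjusted p = 0.0314). Pdk4 gave -2.53 (adjusted p = 0.00110), Igfbp1 -2.10 (adjusted p = 0.00388), Ppargc1a -1.01 (adjusted p = 0.00708), Pck1 -0.47 (adjusted p = 0.0157) and Angptl4 -0.99 (adjusted p = 0.0192). In CL against NC, Srebf1 was higher by 0.83 (adjusted p = 0.0117), and Pck1 and Ppargc1a were lower, at -0.51 (adjusted p = 0.00760) and -1.33 (adjusted p = 0.000756). Of all genes, 7.17% were higher and 6.76% lower in that comparison. With the signals as deposited, Pck1 was not called in CL against NC (-0.19, adjusted p = 0.416) or in CL+CX against NC (-0.22, adjusted p = 0.338), nor was Ppargc1a in CL+CX against NC (-0.77, adjusted p = 0.0825). The part of feeding in the values of Dbp, Tef, Hlf, Nfil3 and Bhlhe40 was not tested.

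Likeness to each of the 5 genes was described by the root mean square distance between standardised log2 profiles over the 15 livers. The points share the separation of the CL+CX livers, so a small distance is in part that separation. Nearest to Dbp was Nr1d2 (0.373), followed by Tmem150a (0.428), Slc25a37 (0.429), Tns2 (0.436), Cul4a (0.439), Bach1 (0.454), Mpdz (0.457) and Tkfc (0.465). Nearest to the mirror image of Dbp were Lgalsl (0.349), Desi2 (0.380), Zfp9 (0.430), Arntl (0.435) and Gars (0.445). Tef was nearest to Dock4 (0.313), Gpr146 (0.319) and Cebpa (0.347), and Hlf to Masp1 (0.350), Cdk18 (0.354) and Lclat1 (0.363). Nfil3 was nearest to Pnrc1 (0.252), Arntl (0.373) and Denn2b (0.399). Bhlhe40 had no neighbour as close, with Socs3 (0.532), Pde4b (0.568) and Junb (0.617).

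Among the 5 genes themselves, Dbp and Nfil3 were the closest pair once one was turned over (mirror distance 0.434). Tef lay between Dbp (0.547) and Hlf (0.541), which were farther from each other (0.924), and Bhlhe40 was at least 1.02 from each of the others.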

How the data were processed

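Total liver RNA of 15 male mice, 5 per diet, was hybridised by the authors to 1 Affymetrix mouse genome GeneChip per mouse. The deposited values are MAS5 signals, an intensity for each probe set on a linear scale. They carry no detection calls, and the 75th percentile of an array was 41.2 to 78.7. Control probe sets (64) were left out. Each array was scaled to the median 75th percentile, 54.1, values under 1 were raised to 1 (11.2% of values), and log2 was taken. Probe sets that reached the median of the array in all 5 mice of any diet (20361) were tested in 1 model of 3 group means with limma 3.58.1 in R 4.3.3, with Benjamini-Hochberg adjustment over all of them and a threshold of 0.05. The fit was run on simulated data with known changes and independent normal noise. Those data held no differences between arrays or in RNA integrity, so the run cannot show how the fit handles these. The tested probe set with the highest mean stood for a gene. Where no array of a group reached its median for a gene, a lower bound of the fold is given.

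Diets were taken from the labels, and the replicate numbers gave no pairing, since the correlation of deviations lay between -0.132 and 0.135 over all pairs and exceeded 0.1 in 1 pair only. The labels number the replicates but name no mouse. The methods describe labeled RNA made from each mouse, so p-values are taken to measure the spread between mice. The 5 genes and all lists were chosen with earlier results of these data known. Genes were named as all members of the family, list genes past the threshold and the nearest profiles (8 and 5 mirrored for Dbp, 3 for the others), and other list genes were named after their values were seen. Alternatives were the deposited scale, quantile normalization, an offset of 16, 2 groups alone, a replicate block, an actin covariate, other filters, a trend with a robust prior, the methods' test and the mean of probe sets, as well as leaving out each mouse. Promoter windows are the 250 bases before RefSeq transcript starts (GRCm38.p6), and 4 of the 5 genes matched the table. Motifs were searched on both strands. Figures were drawn with matplotlib 3.10.9.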

Additional observations from a re-analysis of the deposited data

Results flagged for a closer look

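For Hlf (1434736_at), CL+CX replicate 5 had a signal of 134, apart from the other 4 CL+CX mice at 172 to 185, and its gap to the nearest of them was 0.774 of the range of the group. It was the only such case among 24 groups of 5 mice examined (8 probe sets in 3 diets), and chance alone marks about 1 in 20 groups.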

How the results depend on the processing

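The directions of Dbp, Tef, Hlf and Nfil3 in CL+CX minus CL, and of Dbp, Tef and Nfil3 in CL+CX minus NC, held under all alternatives. Counts of calls depended on the processing more than the differences did, and the causes of these shifts were not tested. Nr1d1 lay between 3.32 and 27.3 in CL livers and between 2.98 and 33.1 in NC livers, and Ciart between 2.08 and 12.0 in CL livers, beside array medians of 11.4 to 13.6.

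With the signals as deposited, CL minus NC over all genes had a median of 0.24 and 96.2% of calls higher (48.1% after scaling), CL+CX minus NC a median of 0.21 and 90.3% higher (48.9%), and CL+CX minus CL a median of -0.05 and 28.4% higher (50.4%). Tef then gave -0.43 in CL minus NC and 0.67 in CL+CX minus NC, and Hlf 0.23 in CL+CX minus NC. In CL+CX minus CL, 81 probe sets, 5 clock genes, 0 PAR bZIP targets, 0 C/EBP genes and 1 feeding gene were called, in CL minus NC 1 PAR bZIP target and 0 C/EBP genes, and in CL+CX minus NC 1 C/EBP gene. Quantile normalization called 1 PAR bZIP target and 1 feeding gene in CL+CX minus CL and 1 C/EBP gene in CL+CX minus NC.

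With an offset of 16, Dbp gave 3.61 in CL+CX minus CL and 3.26 in CL+CX minus NC, 992 probe sets and 2 C/EBP genes were called in CL+CX minus CL, and 5 PAR bZIP targets and 5 feeding genes in CL minus NC. Fitting only 2 groups called 142 probe sets, 0 PAR bZIP targets and 1 feeding gene in CL+CX minus CL, and 3209 probe sets and 7 PAR bZIP targets in CL+CX minus NC. The replicate block called 361 probe sets in CL+CX minus CL, and no other count of calls moved by over 1.5 times.

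With the actin covariate, Hlf gave 0.44 in CL+CX minus CL and -0.23 in CL+CX minus NC. Called in CL+CX minus CL were 1 probe set and 0 clock, 0 PAR bZIP target, 0 C/EBP and 0 feeding genes. In CL minus NC 1138 probe sets were called, and in CL+CX minus NC 661 probe sets, 4 clock genes and 3 feeding genes. The covariate itself differs between CL+CX and CL.

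Without a filter, 38 probe sets, 3 clock genes, 0 PAR bZIP targets and 0 feeding genes were called in CL+CX minus CL, 1126 probe sets in CL minus NC, and 604 probe sets, 4 clock genes and 4 feeding genes in CL+CX minus NC. The filter at the 75th percentile called 5 clock and 2 C/EBP genes in CL+CX minus CL, 0 clock genes, 6 PAR bZIP targets and 5 feeding genes in CL minus NC, and 1 C/EBP gene in CL+CX minus NC. The methods' test called 972 probe sets and 1 PAR bZIP target in CL+CX minus CL, 1573 probe sets in CL minus NC and 1 C/EBP gene in CL+CX minus NC. The mean of all probe sets gave -0.54 and 0.73 for Tef in CL minus NC and CL+CX minus NC.

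Leaving out 1 mouse at a time, CL+CX minus CL ranged over 3.93 to 4.39 for Dbp, 1.12 to 1.27 for Tef, 0.76 to 1.02 for Hlf, -1.63 to -1.28 for Nfil3 and 0.24 to 0.69 for Bhlhe40. CL minus NC ranged over -0.77 to -0.30 for Dbp, -0.85 to -0.70 for Tef, -1.03 to -0.77 for Hlf, -0.43 to -0.08 for Nfil3 and 0.08 to 0.52 for Bhlhe40. Between 105 and 971 probe sets were called, the lowest without CL+CX replicate 3 and the highest without CL replicate 5, together with 5 to 9 clock genes, 0 to 2 PAR bZIP targets, 1 C/EBP gene each time and 0 to 3 feeding genes. Other probe set counts past 1.5 times were 270 without CL replicate 1, 290 without CL replicate 3, 323 without CL replicate 4, and 127, 154 and 399 without CL+CX replicates 2, 4 and 5. In CL minus NC, 1726 to 3918 probe sets (the highest without CL replicate 2), 1 to 2 clock genes and 2 to 7 PAR bZIP targets were called, and in CL+CX minus NC 1200 (without NC replicate 1) to 3039 (without CL replicate 2) probe sets and 0 to 1 C/EBP genes.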
